A study of Mus musculus with 12 samples.

Results

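Mouse 1-cell embryos with a Pabpn1l knockout (KO) were set against wild-type (WT) 1-cell embryos, with 2 libraries for each genotype, or 4 of the 12 libraries of the series. The comparison took in every gene with a complete row in the deposited table, 11298 genes, and was made on the values as deposited and again after each library had been centred on its median. The series also holds KO and WT oocytes with an intact germinal vesicle (GV) and KO and WT 2-cell embryos, which are used below only to place the 1-cell difference. All animals were of the C57BL/6 strain, and every library was made from 10 oocytes or embryos by Smart-seq2, which copies polyadenylated RNA from an oligo-dT primer. The KO 1-cell group carries the genotype label Pabpn1l-KO and the WT 1-cell group Pabpn1l-WT. Per the labels, embryos of both groups were grown in KSOM medium and received no other treatment. The labels do not state whether the mother, the embryo or both carried the knockout, which allele was used, the age of the animals, or the hour at which embryos were taken. They do not state that libraries of a group came from separate females either, so the p-values reflect how far these particular libraries spread, and that spread may be technical. Because each library pools embryos, fewer embryos with a transcript and less of it in each embryo cannot be told apart.

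A mouse oocyte stores a large set of maternal mRNAs that is translated and then destroyed in steps from meiotic maturation to the onset of embryonic transcription. BTG4 is a maternal adaptor that brings the CCR4-NOT deadenylase to these mRNAs, and shortening of the poly(A) tail by that complex starts their decay. PABPN1L belongs to the poly(A)-binding proteins, is made in oocytes and early embryos, and binds BTG4, so the comparison asks which maternal transcripts differ in abundance after fertilization when Pabpn1l is knocked out.

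On the deposited scale most genes lay higher in KO than in WT. The values are FPKM (fragments scaled to transcript length and to the mapped fragments of the library) with a lower floor of 1. Summed over genes, they came to 236600 and 285400 in the KO libraries and 127000 and 98840 in the WT libraries. The KO libraries had 7928 and 8553 genes above the floor, and the WT libraries 6710 and 6361. Over the 6227 genes above 1 FPKM in all 4 libraries, the median KO to WT ratio was 2.06 (log2 1.04, and 0.68 to 1.41 over the 4 pairs of a KO with a WT library). Each column carries a multiplier of its own, 0.432 and 0.552 in the KO and 0.269 and 0.212 in the WT libraries. With the multiplier divided out, the median log2 ratio was 0.01. What the authors based it on is not given in the sources used here, so an embryo-wide difference in RNA and a difference in scaling cannot be told apart. After centring, replicates correlated across genes at Pearson's r of 0.978 in KO and 0.987 in WT, against 0.919 to 0.934 between a KO and a WT library (genes are not independent replicates).

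As deposited, 5445 of the 7895 genes tested were called higher in KO (69%) and 8 lower (0.101%), by limma on log2(FPKM + 1) at a Benjamini-Hochberg adjusted p under 0.05. On that scale nearly any list of genes is higher in KO. The rest of the text therefore gives centred FPKM, where each library was divided by its own median relative to the mean of the medians, and values under the highest of the 4 floors, 1.65 centred FPKM, were raised to it. On this scale a gene called higher or lower in KO departs from the typical transcript of the same embryos. Fold changes are KO over WT on the log2(centred FPKM + 1) scale, which understates the change of low genes, and values after ± are standard errors with 2 libraries a group.

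After centring, 726 of 6569 genes tested were called higher in KO (11.1%) and 423 lower (6.44%). Among all calls (17.5%), 364 were higher by at least 2-fold (5.54% of genes tested) and 82 lower by that much (1.25%). In the deposited values the 726 genes called higher had a median KO to WT ratio of 5.11, and those not called 2.09. The 423 called lower had a median deposited ratio of 1.19, and 7 of them were also called lower as deposited. So most of the genes lower on the centred scale were at a similar deposited level in KO and WT embryos while the typical transcript was about 2.06 times as high in KO. The split of calls moved with the scaling. Higher calls were 63.2% of all calls after centring, 79.7% with the multiplier divided out (846 higher, 215 lower), 72.1% with quantile normalization (678 and 262), and 46.9% when each library kept its own floor (968 and 1098). The median log2 fold change over all genes tested was −0.06 after centring and 0.05 with the multiplier divided out, and fold changes are to be read against it. With 1 library left out, the 4-library fit made 0 calls on the centred scale in any of the 4 cases, with 1091 to 1985 genes at an unadjusted p under 0.05 (2199 with all 4 libraries, 33.5%). Taking the spread from the other stages as well, in a fit chosen after seeing the data, 751 to 899 of the 1149 calls remained with a library left out, and all 1149 kept their direction. In that fit the lower calls numbered 272 without WT replicate 2, and 408 to 461 without any of the other libraries.

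**Figure D1:**
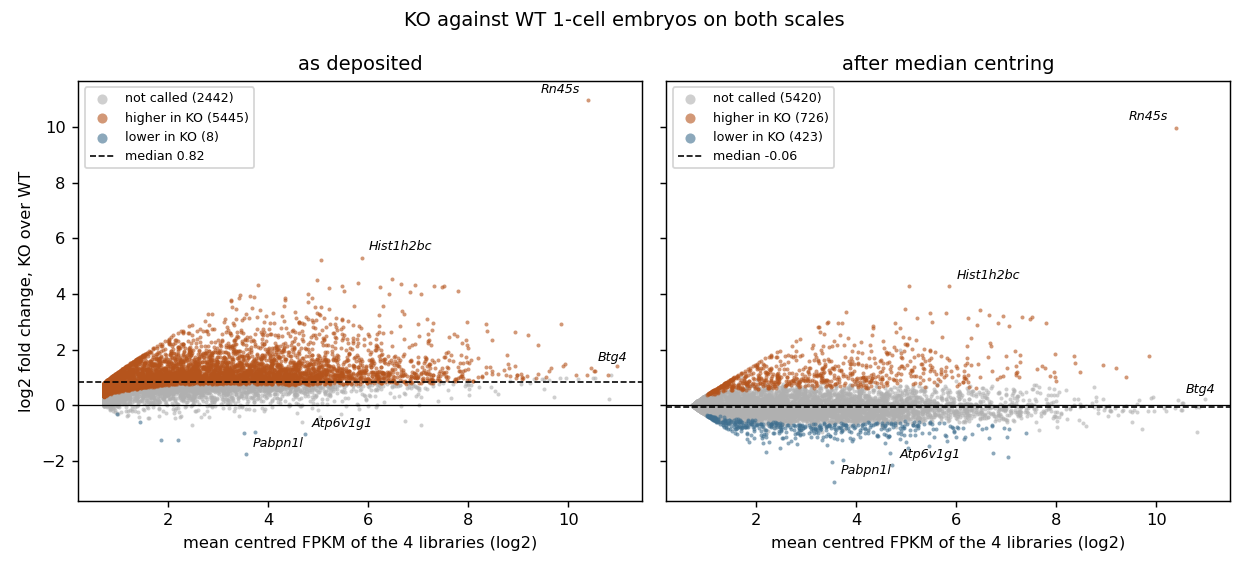
Log2 fold change of KO over WT 1-cell embryos against the mean centred FPKM of the 4 libraries (log2) for each gene tested, as deposited (left) and after median centring (right). Orange points were called higher and blue points lower in KO. As deposited the cloud lies around a median of 0.82, and after centring around −0.06, with 726 genes above and 423 below it called.

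Pabpn1l fitted its labels. It stood at 2.00 and 2.61 centred FPKM in the KO libraries, against 22.3 and 20.1 in the WT libraries (log2 fold change −2.75 ± 0.19, adjusted p = 0.000168). Both KO libraries lay far under both WT libraries, and above the floor. In oocytes it stood at 7.23 and 4.98 FPKM in KO against 220.1 and 203.9 in WT. The sizes of the 2 effects are not compared, since the floor limits how far a gene at the WT embryo level can fall. Btg4, the partner adaptor, was among the most abundant transcripts, at 1634 and 1311 centred FPKM in KO and 1475 and 1142 in WT. Its groups overlapped and no difference passed (0.17 ± 0.33, adjusted p = 0.751).

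The largest rises above the typical transcript were in genes of several functions. Hist1h2bc, which encodes a histone H2B, stood at 122.7 and 100.5 centred FPKM in KO and 6.85 and 3.25 in WT (4.28 ± 0.28, adjusted p = 0.000138). The KO level was more than 10-fold the WT level in every pair of libraries, while in oocytes the transcript had been at 307.6 and 337.3 FPKM in KO and 287.2 and 313.8 in WT. Histone genes have near-identical copies, so reads of this one may be shared with others.

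Paip2 encodes a repressor of translation that binds poly(A)-binding proteins and displaces them from poly(A) tails. It stood at 155.7 and 115.1 centred FPKM in KO and 15.6 and 13.4 in WT (3.12 ± 0.21, adjusted p = 0.000138), from oocyte levels of 548.6 and 521.3 FPKM in KO and 523.6 and 586.6 in WT. Calm2, one of the genes for calmodulin, the calcium sensor used in egg activation, reached 350.2 and 222.1 in KO against 30.3 and 30.5 in WT (3.16 ± 0.24, adjusted p = 0.000216). Cd9, the egg tetraspanin needed for fusion with sperm, stood at 95.5 and 69.1 in KO and 10.6 and 8.02 in WT (3.01 ± 0.22, adjusted p = 0.000194). For all 3 the lowest KO library was above 5 times the highest WT library. The remaining genes of the 12 largest rises were Psma5, Ndufb3, Lsm5, Rpl5 and Shfm1, described with their groups below, Tm2d1 (178.6 and 149 in KO, 19.4 and 10.5 in WT), and 2 without an assigned function here. Of these, 2410004A20Rik stood at 51.7 and 65.2 in KO and 4.13 and 4.66 in WT. E330017A01Rik stood at 282.7 and 162.2 in KO and 24.5 and 20.6 in WT, after some of the highest oocyte levels of the table, 4432 and 4679 FPKM in KO and 3618 and 4399 in WT. KO and WT did not overlap for any of the 12, which their selection by fold change among called genes makes likely.

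The largest falls were smaller than the rises and named several housekeeping genes. Atp6v1g1, a stalk subunit of the vacuolar proton pump, stood at 11 and 7.52 centred FPKM in KO and 46.1 and 41.3 in WT (−2.14 ± 0.21, adjusted p = 0.000559). Sod1, the cytosolic superoxide dismutase, stood at 69.6 and 44.5 in KO and 210.6 and 202.9 in WT (−1.88 ± 0.24, adjusted p = 0.00198). Fth1, the iron-storing heavy chain of ferritin, stood at 18.7 and 14 in KO and 48.7 and 49.9 in WT (−1.55 ± 0.19, adjusted p = 0.00165). For these genes the WT replicates lay close together and the KO replicates further apart, without overlap, and they were selected in the same way.

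Sec62, a subunit of the protein translocation machinery of the endoplasmic reticulum, stood at 4.82 and 3.12 in KO and 18.3 and 19.8 in WT (adjusted p = 0.000785). Slc30a3, a zinc transporter, stood at 17.5 and 29.5 in KO and 59.6 and 69.4 in WT (−1.46 ± 0.25, adjusted p = 0.00667). Arf3, a small GTPase of vesicle budding, stood at 5.58 and 4.96 in KO and 14.4 and 17.8 in WT (−1.44 ± 0.19, adjusted p = 0.00236). Frg1 had one of the widest gaps between KO replicates, 8.04 and 2.56 in KO against 21.8 and 21.1 in WT (−1.98 ± 0.37, adjusted p = 0.00992), and with quantile normalization it was no longer called (−2.01). The other genes of the 12 largest falls, apart from Pabpn1l, were Cox5a, 1810006K21Rik, Deb1 and the small noncoding RNA Vaultrc5. The oocyte values of these genes lay closer together: Atp6v1g1 stood at 305 and 262.9 FPKM in KO oocytes and 275.2 and 284.4 in WT oocytes, and Sod1 at 1629 and 1697 in KO and 1531 and 1545 in WT oocytes.

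**Figure D2:**
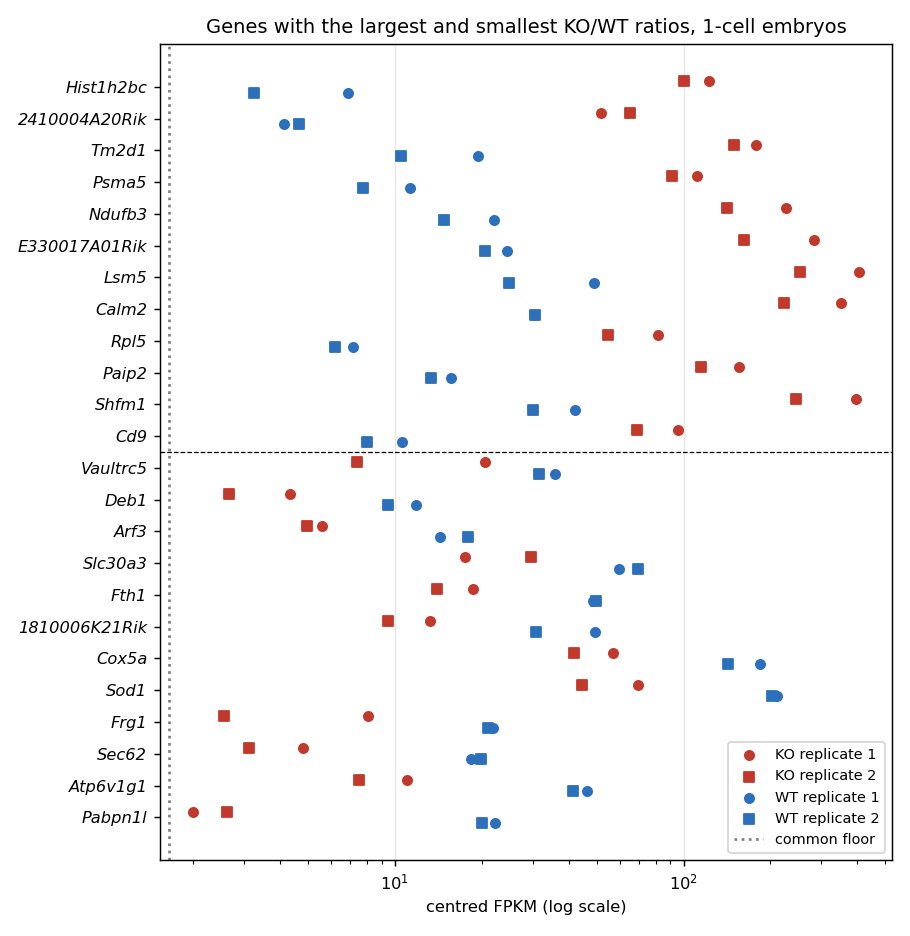
Centred FPKM (log axis) in each 1-cell library for the 12 genes with the largest and the 12 with the smallest fold change among called genes above the floor in all 4 libraries and with a mean of at least 10 in the higher group. Red marks are KO and blue marks WT libraries, circles replicate 1 and squares replicate 2, and the dotted line is the common floor. Above the dashed line every KO mark lies right of every WT mark, as for Hist1h2bc (122.7 and 100.5 in KO, 6.85 and 3.25 in WT), and below it every KO mark lies left. The selection of these genes makes such a separation likely.

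After centring, some transcripts were at or under the common floor of 1.65 centred FPKM in both libraries of 1 genotype. There were 94 such genes among the 726 called higher, at the floor in WT, and 35 among the 423 called lower, at the floor in KO. These genes passed the filter through the other genotype alone, and raising both values to the floor left no spread between them. Their calls therefore depend on where the floor lies. When only genes above the floor in all 4 libraries were tested, 726 were called higher and 533 lower. The genes at the floor in WT had the same median level in KO and WT oocytes, 19.9 FPKM. Rn45s, the annotated precursor of ribosomal RNA, stood at 2555 and 2778 centred FPKM in KO and at the floor in both WT libraries, although WT oocytes had 4050 and 6056 FPKM and KO oocytes 2446 and 6099. This RNA is not polyadenylated, has many genomic copies, and a value at the floor can be a failed estimate, so no fold change is read from it. Mtx2, a mitochondrial outer membrane protein, stood at 27.9 and 24.3 in KO and Lsm4, a ring subunit of the decapping and splicing LSM complexes, at 19.9 and 19.3, with WT at the floor for both. Ccdc23, Rpsa and Eif3j followed, at 16.8 to 21.4 centred FPKM in the KO libraries. In the opposite direction, Cdk1, the kinase that drives meiotic and mitotic M phase, was at the floor in both KO libraries and at 8.07 and 6.96 in WT, after 98.4 and 85.6 FPKM in KO oocytes and 82.6 and 100.1 in WT oocytes. The deposited KO values of Cdk1, 1.595 and 1.503 FPKM, lay above the deposited floor of 1 and, once centred, were raised to the common floor. Anpep, which encodes aminopeptidase N, was at the floor in KO and at 6.28 and 4.90 in WT. It was already at the floor in both KO oocyte libraries, against 3.20 and 3.71 FPKM in WT oocytes.

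Of the 10 genes with the highest mean deposited FPKM, Rn45s was the single one called, against 17.5% of all genes tested. So small a set does not set abundant transcripts apart. In the highest of 5 groups by mean centred FPKM, 13.6% were called higher and 6.77% lower, against 11.1% and 6.44% over all genes. Oosp1, which encodes a secreted oocyte protein, stood at 2533 and 1810 centred FPKM in KO and 2008 and 1655 in WT (0.23 ± 0.36, adjusted p = 0.692). Dppa3, the maternal factor that protects DNA methylation of the maternal pronucleus, stood at 1809 and 1248 in KO and 1513 and 1358 in WT (adjusted p = 0.909). Bcl2l10, an oocyte member of the BCL2 family, stood at 1722 and 1887 in KO and 1938 and 1856 in WT (adjusted p = 0.9). Groups overlapped for all of these. Standard errors at this level were 0.33 for Bcl2l10 and 0.36 for Oosp1, so a missed threshold does not show equal levels. Zbed3, which encodes a cytoplasmic protein of the subcortical maternal complex, stood at 1127 and 1277 in KO and 1886 and 2865 in WT without overlap, and missed the threshold (−0.95 ± 0.36, adjusted p = 0.104).

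Genes of poly(A) binding and deadenylation had calls in both directions. Among 8 tested poly(A)-binding proteins and their interactors, Paip2 was called higher and Pabpn1l lower (12.5% each, against 11.1% higher and 6.44% lower over all genes). The nuclear paralog Pabpn1 was not called, at 16.7 and 14.5 centred FPKM in KO and 19.8 and 26 in WT. The oocyte paralog Pabpc1l was not called either, at 10.5 and 18 in KO and 11.6 and 14.3 in WT. Of 17 tested BTG and TOB adaptors and CCR4-NOT, PAN and PARN deadenylase genes, 1 was called higher and 1 lower (5.88% each, against 11.1% higher and 6.44% lower over all genes). The median log2 fold change was −0.05, against −0.06 over all genes tested. With 1 call in each direction, neither list can be told apart from all genes. Tob1, an adaptor related to BTG4, stood at 4.60 and 3.76 in KO and at the floor in WT. Cnot3 was the called subunit of the deadenylase, at 13.2 and 9.98 in KO and 17.9 and 31.8 in WT (−0.99 ± 0.27, adjusted p = 0.0405), and it was not called without WT replicate 2 (−0.59) or without KO replicate 2 (−0.81) in the fit of all 12 libraries. Cnot7, which encodes a catalytic subunit, stood at 119.1 and 108.2 in KO and 154.2 and 108.7 in WT, and Cnot6l, the catalytic subunit prominent in oocytes, at 64.5 and 46.5 in KO and 72.9 and 66.5 in WT, and neither was called.

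Of 27 decapping, LSM and exosome genes, 3 were called higher (11.1%) and 2 lower (7.41%), near the shares over all genes of 11.1% and 6.44%. Lsm5, a subunit of the LSM rings, stood at 405.8 and 253.8 in KO and 49.1 and 24.9 in WT (3.16 ± 0.34, adjusted p = 0.000829), and its partner Lsm2 went the other way, at 19 and 15 in KO and 33.2 and 31.3 in WT (adjusted p = 0.014). Among 27 genes of cytoplasmic polyadenylation and mRNA storage, 2 were called higher and 2 lower (7.41% each). Zar1l, a relative of the maternal mRNA-storage factor Zar1, was higher in KO at 80.6 and 74.6 against 34.3 and 30.2 in WT (adjusted p = 0.00307), and Fxr2 was higher too. Eif4e1b, the oocyte cap-binding protein, was lower in KO at 37.7 and 31.9 against 73.0 and 76.8 in WT (−1.09 ± 0.18, adjusted p = 0.00577). The fourth, Stau2, was lower by less (−0.52). In the fit of all 12 libraries it lost its call without WT replicate 1 (−0.50), WT replicate 2 (−0.53) or KO replicate 2 (−0.50).

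Of 43 tested oocyte-specific and maternal-effect genes, 7 were called higher in KO (16.3%, against 11.1% of all genes), 0 lower, and the list's median was −0.07. The median was 0.06 with the multiplier divided out, where 6 were higher. In the fit of all 12 libraries it was 0.05 without WT replicate 1 and 0.11 without KO replicate 2. Nlrp2, a member of the maternal NLRP family, stood at 34.1 and 35.0 centred FPKM in KO and 10.7 and 10.3 in WT (1.63 ± 0.17, adjusted p = 0.000725). Gdf9, the growth factor that oocytes secrete to follicle cells, stood at 384.2 and 604.3 in KO and 204.9 and 218.8 in WT (1.18 ± 0.27, adjusted p = 0.0214). The higher members numbered 2 without WT replicate 1, 2 without KO replicate 2, where Gdf9 was no longer called (0.86), and 2 with quantile normalization, where Gdf9 was not called either (1.00). The companion growth factor Bmp15 was not called, at 586.4 and 473.4 in KO and 676.2 and 674.8 in WT.

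Of 22 genes around CDK1, cyclins, CDC25 and MOS, which drive and hold meiotic M phase in the egg, 3 were called higher (13.6%) and 2 lower (9.09%), near the shares over all genes of 11.1% and 6.44%, with a median of −0.20. Mos, the kinase that holds the unfertilized egg in metaphase II, stood at 24.0 and 25.1 centred FPKM in KO and 4.28 and 7.39 in WT (1.94 ± 0.24, adjusted p = 0.00159). Cdc25b, the phosphatase that starts meiotic maturation by activating CDK1, stood at 2.11 and 2.42 in KO and 6.01 and 8.62 in WT (−1.33 ± 0.20, adjusted p = 0.00363). Ccnb1, the cyclin partner of CDK1, was not called, at 301.2 and 279.0 in KO and 379.3 and 274.6 in WT. The fit of all 12 libraries called 1 member higher and 3 lower, and with a 1-cell library left out it called 1 or 2 higher and 2 or 3 lower.

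In the spindle checkpoint and anaphase-promoting complex, 5 of 33 members were higher (15.2%) and 3 lower (9.09%), against 11.1% and 6.44% over all genes. The checkpoint kinase gene Bub1 was higher in KO (13.6 and 11.8 against 5.74 and 4.77 in WT, adjusted p = 0.00603) and that of its binding partner Bub3 lower (14.5 and 11.8 in KO, 30.7 and 28.8 in WT, adjusted p = 0.00512). Birc5, which encodes the passenger protein survivin, was lower at 119.9 and 102.7 in KO and 235.3 and 211.7 in WT (adjusted p = 0.0136). In the fit of all 12 libraries the count of higher members was 3 without WT replicate 1 and 3 without WT replicate 2.

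Proteasome subunits stood above the typical transcript in KO embryos. Of 40 tested, 16 were called higher (40%, against 11.1% of all genes), 0 lower, and the median log2 fold change was 0.32. Psma5, a subunit of the outer ring of the 20S core, stood at 111.7 and 91.2 centred FPKM in KO and 11.2 and 7.76 in WT (3.30 ± 0.22, adjusted p = 0.000138). Psmb1, of the inner ring, stood at 56.0 and 43.3 in KO and 5.88 and 5.28 in WT (adjusted p = 0.000138). Shfm1, a small subunit of the regulatory lid, stood at 395.6 and 244.7 in KO and 42.2 and 30.2 in WT (adjusted p = 0.00045). The rises were uneven within 1 ring: Psma3, Psma4, Psma6 and Psma7, neighbours of Psma5, were not called, and Psma6 stood at 28.4 and 21.1 in KO and 28.7 and 22.0 in WT. These 4 and Psmb1 were picked after their values were seen. The count stayed between 14 and 16 with any 1-cell library left out of the fit of all 12. Of 30 ubiquitin-activating and conjugating enzymes, 5 were higher (16.7%) and 1 lower (3.33%, against 6.44% of all genes). The largest rise was in Ube2t, the conjugating enzyme of the Fanconi anaemia pathway, at 410.4 and 373.1 in KO and 58.7 and 41.5 in WT (2.96 ± 0.23, adjusted p = 0.000216).

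Among lists with at least 15 members tested, respiratory complex I had the highest share of higher calls. Of its 38 tested nuclear-encoded genes, 17 were higher (44.7%) and 2 lower (5.26%), against 11.1% and 6.44% over all genes, with a median of 0.53. The count of higher members ran from 13 to 21 with any 1-cell library left out of the fit of all 12. Ndufb3, an accessory subunit of the membrane arm, stood at 226.2 and 141.2 centred FPKM in KO and 22.0 and 14.8 in WT (3.24 ± 0.27, adjusted p = 0.000369), and Ndufc2 at 30.4 and 21.8 in KO and 4.48 and 5.52 in WT. Ndufb2 and Ndufa10 were the lower members, and Ndufa10 stood at 30.5 and 37.9 in KO and 65.1 and 61.0 in WT (adjusted p = 0.0157). Of 38 genes of complexes II to V, 13 were higher (34.2%) and 2 lower (5.26%), with a median of 0.26. In the fit of all 12, 7 were higher without WT replicate 2, and 6 lower without KO replicate 1. Cox7c, a small subunit of cytochrome c oxidase, stood at 72.7 and 55.1 in KO, and at 3.16 and the floor in WT (adjusted p = 0.00013). Cox5a, a subunit of the same enzyme, was lower in KO at 56.9 and 41.6 against 184.2 and 142.7 in WT (−1.72 ± 0.23, adjusted p = 0.00233). These 2 members of 1 complex thus differed in opposite directions, but lower calls in both lists were no more frequent than over all genes.

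The shares of the next lists are to be read against 11.1% higher and 6.44% lower over all genes. All 5 called genes among 19 of mitochondrial protein import were higher (26.3%: Mtx2, Timm9, Tomm6, Tomm7 and Tomm22), with Timm9, a chaperone of the intermembrane space, at 162.7 and 139.3 in KO and 19.6 and 19.6 in WT (2.88 ± 0.18, adjusted p = 0.00013). Of 66 mitochondrial ribosomal proteins, 14 were higher (21.2%) and 4 lower (6.06%), among them Mrps28 at 40.8 and 32.1 in KO and 4 and 4.36 in WT, and Mrpl47 at 10.6 and 7.06 in KO and 23.9 and 19.6 in WT. Of 26 enzymes of glycolysis and the citric acid cycle, which are partly cytosolic, 5 were higher (19.2%) and 0 lower, led by Idh3a, a subunit of isocitrate dehydrogenase, at 35.3 and 34.7 in KO and 13.6 and 9.75 in WT (adjusted p = 0.0021).

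Cytoplasmic ribosomal proteins were higher in part, with a list median of 0.18 already in GV oocytes. Of 80 tested, 20 were higher (25%) and 4 lower, with a median of 0.17. In the fit of all 12 libraries without KO replicate 1 the median was −0.03, with 17 higher and 7 lower. Rpl5, which carries 5S RNA into the large subunit, stood at 81.2 and 54.5 centred FPKM in KO and 7.16 and 6.18 in WT (3.14 ± 0.22, adjusted p = 0.000169). Rpl18 stood at 24.6 and 21.2 in KO, and at the floor and 2.54 in WT (adjusted p = 0.000169). These genes have many processed pseudogenes, so their reads may be split in ways not given in the sources used here. Of 54 translation factors, 8 were higher and 2 lower, and of 17 aminoacyl-tRNA synthetases 3 (Qars, Rars and Iars) and 2 (Kars and Sars).

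Chaperones were another list with a raised share, 12 of 34 higher (35.3%) and 3 lower, with a median of 0.21. Dnaja1, a co-chaperone of HSP70, stood at 74.6 and 68.0 in KO and 19 and 15.6 in WT (1.99 ± 0.18, adjusted p = 0.000451), and the prefoldin gene Vbp1 at 92.3 and 60.7 in KO and 23 and 16.3 in WT. Pfdn2, another prefoldin subunit, was lower in KO at 27.6 and 25.3 against 55.7 and 51.2 in WT (adjusted p = 0.00714). The redox enzymes split, with 4 of 20 higher and 4 lower. Txn1 (thioredoxin) stood at 65.9 and 42.3 in KO and 10.6 and 11.7 in WT (adjusted p = 0.000788), and Prdx3, a mitochondrial peroxiredoxin, at 16.0 and 14.1 in KO and 3.04 and 2.25 in WT. Sod1 and the thioredoxin inhibitor Txnip were on the lower side, Txnip at 39.2 and 49.4 in KO and 119.9 and 81.0 in WT (adjusted p = 0.014).

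Genes of gene expression in the nucleus were mixed. Of 64 RNA polymerase subunits and general transcription factors, 15 were higher (23.4%, against 11.1% of all genes) and 4 lower (6.25%, against 6.44%). Gtf2h5, the smallest subunit of TFIIH, stood at 32.0 and 26.2 centred FPKM in KO and 6.30 and 4.19 in WT (2.28 ± 0.22, adjusted p = 0.000544). Supt4h1, an elongation factor, was lower at 7.22 and 5.35 in KO and 17.9 and 12 in WT (adjusted p = 0.0158). Of 47 spliceosome genes, 9 were higher and 1 lower, and 2 subunits of the same SF3A particle were on opposite sides: Sf3a3 at 44.0 and 48.2 in KO and 16.3 and 10.9 in WT, and Sf3a1 at 8.08 and 7.55 in KO and 12.6 and 14.8 in WT. The Sf3a1 call was lost in the fit of all 12 libraries without WT replicate 2 (−0.62) or KO replicate 2 (−0.69). It was also lost in the 4-library fit with the multiplier divided out (−0.65). Of 49 nucleolar ribosome biogenesis genes, 9 were higher (18.4%) and 6 lower (12.2%). Emg1, an rRNA methyltransferase, was higher in KO (24.3 and 20.2 against 6.95 and 6.66 in WT) and Dkc1, the pseudouridine synthase of H/ACA particles, lower (16.0 and 14.2 in KO, 35.7 and 33.5 in WT).

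The remaining lists had few calls or calls in both directions, to be read against 11.1% higher and 6.44% lower over all genes. Of 38 ER translocation and coat genes, 6 were higher and 4 lower. Sec11c, of the signal peptidase, was higher at 103.4 and 76.5 in KO and 18.7 and 12.5 in WT. Of 42 kinesin, tubulin and actin genes, 8 were higher and 4 lower. In the fit of all 12 libraries 4 were higher without WT replicate 1 or without KO replicate 2. Among 17 tested histone genes, Hist1h2bc, the replacement histone gene H3f3a (396 and 293.1 in KO, 159 and 137.6 in WT) and the oocyte linker histone gene H1foo were higher and Hist1h4d lower. Hist1h4d was at the floor in both KO libraries and at 2.515 and 2.516 in WT, so its call depends on the floor too. Of 17 entries in the list of the vacuolar proton pump, Atp6v1g1, Atp6v0d1 and Atp6v0c-ps2 were lower and Atp6v1d higher, and Atp6v1g1 was lower by the most. By its symbol Atp6v0c-ps2 is a pseudogene, so its reads may be shared with the parent gene. Among 11 genes of the egg surface and fertilization, Cd9 and the oocyte protease gene Astl were higher, and Folr4, which encodes JUNO, the egg receptor for sperm, was lower at 21.4 and 21.4 in KO and 49.6 and 42.1 in WT (adjusted p = 0.00578). Of 23 genes of DNA methylation and pronuclear remodelling, 0 were higher and 2 lower (Atrx and Kdm4a). Of 49 DNA replication genes, Fen1 was higher and Rfc3, Top2a and Lig1 lower. Of 14 cleavage and polyadenylation factors, 3 were higher and 1 lower, and Fip1l1 stood at 33.9 and 46.4 in KO and 16.6 and 17.6 in WT (adjusted p = 0.00648). Mettl14, a subunit of the m6A methyltransferase, was the 1 called gene of 11 in its list and was lower, at 2.84 and 2.16 in KO and 7.11 and 6.39 in WT (adjusted p = 0.00408).

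Genes transiently transcribed at the 2-cell stage were mostly at the floor, as 7 of 27 in the table passed the filter, of which D5Ertd577e was higher and Sp110 and Eif1ad lower. Markers of other cells were few and not called. Of the 5 cumulus and granulosa markers in the table, Fshr, Inha and Amhr2 were not above the floor in any of the 4 libraries. The other 2 were above it, passed the filter and were not called (log2 fold changes −0.27 and −0.22). The summed level of the 5 was 19.9 and 18.8 centred FPKM in KO and 24.0 and 20.9 in WT. Sperm markers summed to 6.05 and 5.14 in KO and 6.78 and 6.10 in WT, and blood and immune markers to 9.73 and 11.4 in KO and 11 and 11 in WT, floor values included. Of 14 tested genes commonly used as a reference, 3 were higher (21.4%, against 11.1% of all genes), 0 lower and 11 not called, with a median of −0.05. Ppia stood at 93.3 and 68.0 in KO and 24.6 and 21.2 in WT, and B2m at 45.0 and 32.2 in KO and 10.8 and 6.39 in WT.

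**Figure D3:**
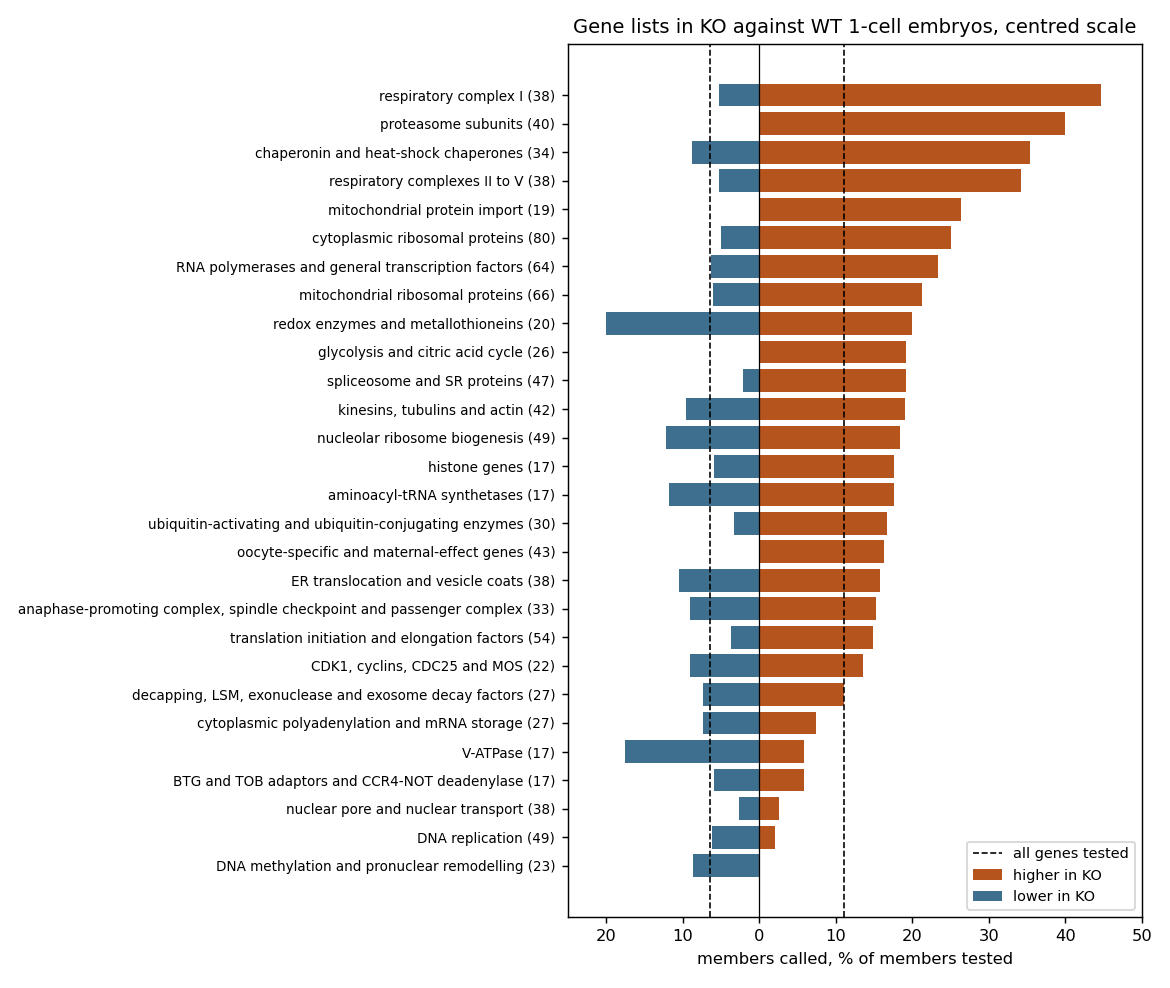
Percent of tested members called, for each gene list with at least 15 members tested, as higher in KO (orange, right of 0) or lower in KO (blue, left of 0) on the centred scale, with the number tested in brackets. Dashed lines mark the shares over all genes tested, 11.1% higher and 6.44% lower. Of the lists drawn, complex I (44.7%) and the proteasome (40%) lie farthest to the right.

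The genes called higher tended to have short transcripts. Features were read from 1 protein-coding transcript a gene (the one with the longest coding sequence) in GENCODE M21, and genes with a transcript were cut by length into 5 groups of like size. In the shortest group, 198 to 1507 bases, 21.4% were called higher, and then 16%, 10.2%, 5.63% and 2.61% toward the longest group, 4602 to 123179 bases. Lower calls showed no such order, from 5.23% to 7.84%. The median transcript length was 1777 bases for genes called higher, 2822 for those called lower and 2919 for those not called, and the median 3′ untranslated region was 423, 828 and 1006 bases in the same order. The order of the 5 groups held with quantile normalization (16.5% to 3.02%) and with the multiplier divided out (24.7% to 3.39%). It also held after 9 lists of ribosomal, respiratory, proteasome and like genes were left out (19.8% to 2.65%). With genes first divided into 3 groups by oocyte level, higher calls ran from 10.1% in the shortest to 1.24% in the longest transcripts at the lowest level, and from 24% to 4.76% at the highest.

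Replicates differed along transcript length too. The median log2 difference in the shortest group was 0.13 and 0.25 for KO replicate 1 over the WT libraries and 0.00 and 0.06 for KO replicate 2, and KO replicate 1 over KO replicate 2 gave 0.19. In the longest group it was −0.16, −0.17, −0.20 and −0.26 in the 4 pairs of a KO with a WT library, while the replicates of a genotype differed by 0.04 in KO and −0.02 in WT. So short transcripts set KO replicate 1 apart from its own replicate by as much as from WT, and long transcripts were lower in both KO libraries. RNA quality was not measured in these files, and its part in the order was not tested. In oocytes the KO over WT median was 0.11 in the shortest group and between 0.00 and 0.03 in the other groups. At the 2-cell stage the medians were, from short to long, −0.12, −0.03, 0.05, 0.12 and 0.13, the opposite order to the 1-cell stage.

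**Figure D4:**
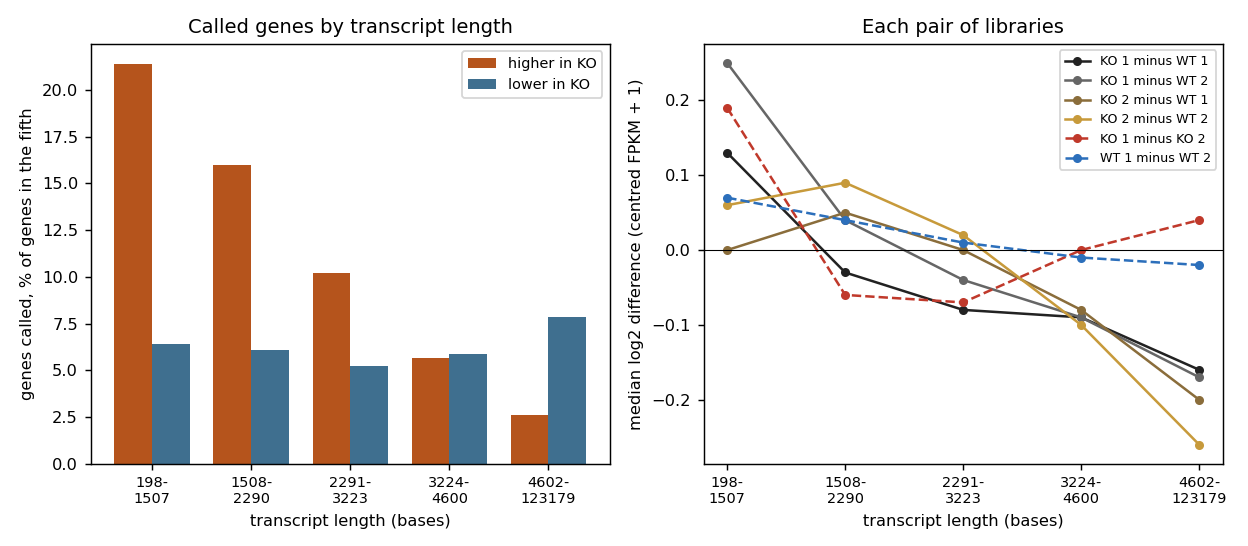
Left, percent of genes called higher (orange) or lower (blue) in KO in each of 5 groups by transcript length (bases). Higher calls fall from 21.4% to 2.61%. Right, median log2 difference in each group for the 4 pairs of a KO with a WT library (solid) and for the replicates of KO and of WT (dashed), with KO replicate 1 over KO replicate 2 at 0.19 in the shortest group.

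Genes called higher also had higher oocyte levels, with a median of 57 FPKM in WT GV oocytes, against 26.6 for genes called lower and 23.4 for genes not called. In 5 groups from the lowest to the highest WT oocyte level, 2.82%, 6.93%, 10.7%, 14.5% and 20.4% of genes were called higher in KO 1-cell embryos. GC content showed no such order for higher calls, from 9.45% to 13.2%, and lower calls ran from 4.03% in the group poorest in GC to 8.27% in the richest. Short motifs of 3′ ends were read on the transcript strand alone. TTTTAT, the cytoplasmic polyadenylation element, stood in the last 150 bases of 18.1% of the 3′ untranslated regions of the 681 genes called higher that had one, 18.1% of the 382 called lower and 21.5% of the 5068 not called. An AATAAA or ATTAAA polyadenylation signal stood in the last 40 bases of 79.4%, 70.2% and 78.3% of the same classes. The AU-rich core TATTTA stood anywhere in 34.4%, 46.3% and 49.9%, classes whose median lengths differed as given above. A motif match is a description of the annotated sequence and not a binding site.

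Genes called at the 1-cell stage had small median differences in oocytes. Genes called higher at the 1-cell stage had a median KO over WT difference of 0.07 in GV oocytes, with 99.4% of them within 0.5 on the log2 scale, and genes called lower had 0.05. The change of the KO effect between the stages was tested in a fit of 8 libraries, which share no library between the effects: 402 of 6561 genes had a KO effect that was higher at the 1-cell than at the GV stage (6.13%), and 179 one that was lower (2.73%). Hist1h2bc changed by 4.12 ± 0.34 (adjusted p = 1.25e-05), Paip2 by 3.12 (adjusted p = 1.55e-05) and Psma5 by 3.16 (adjusted p = 1.71e-05). On the lower side, Atp6v1g1 changed by −2.22 ± 0.27 (adjusted p = 0.000179). Of the proteasome subunits 12 of 40 passed this test on the higher side and 0 on the lower, of cytoplasmic ribosomal proteins 14 and 2 of 80, and of complex I genes 8 and 2 of 38. Of oocyte-specific genes 2 of 43 passed, both higher. The median KO over WT difference of the proteasome list was 0.12 in oocytes and 0.32 at the 1-cell stage. For complex I it was 0.2 and 0.53, and for cytoplasmic ribosomal proteins 0.18 and 0.17. The ribosomal list as a whole thus stood no higher at the 1-cell stage than in oocytes.

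The direction of the 1-cell difference was kept by most of its genes at the 2-cell stage. Genes called higher in KO at the 1-cell stage had a median of 0.33 in 2-cell embryos (63.6% of 612 tested were above WT), and genes called lower had −0.33 (74% of 300 were below WT). These shares are to be read against the 4222 genes not called, with a median of 0.07, 54.1% above WT and 45.8% below. Between the stages the KO effect was higher at 1-cell for 963 of 5134 genes (18.8%) and lower for 959 (18.7%), in a fit of 8 libraries. Cytoplasmic ribosomal proteins stood out, with 57 of 80 on the higher side, 0 on the lower and a median of 1.55, since they were lower in KO at the 2-cell stage by a median of −1.29. Nucleolar genes had 28 of 46 higher and 2 lower, and the proteasome 22 of 40 and 3. Oocyte-specific genes lay on the opposite side, with 2 of 40 higher and 14 lower, and a median of −0.81. Rpl18 was higher in KO at the 1-cell stage and lower at the 2-cell stage, where it stood at 5.70 and 4 centred FPKM in KO and 15.4 and 19.4 in WT, and Psmb1 did the same, at 3.71 and 6.20 in KO 2-cell embryos and 13.5 and 18.3 in WT. Dazl, a germ-cell regulator of maternal mRNA translation, was level at the 1-cell stage (152.8 and 118.0 in KO, 166.0 and 138.3 in WT), but stood at 54.6 and 81.5 in KO and 9.10 and 8.76 in WT 2-cell embryos. Hist1h2bc, Rn45s and Tm2d1 were above WT at both embryonic stages, with Hist1h2bc at 24.2 and 35.2 in KO 2-cell embryos and at the floor in both WT libraries.

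**Figure D5:**
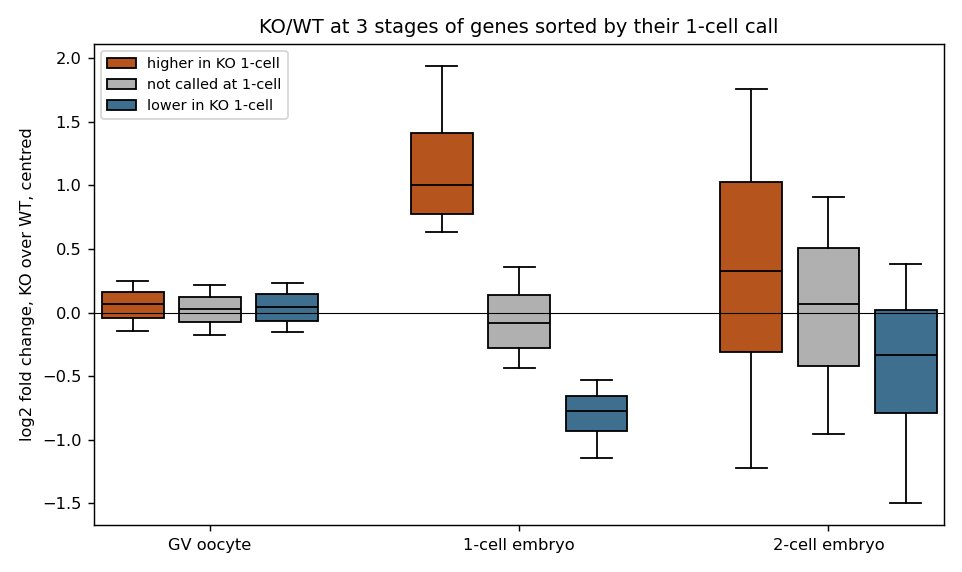
Log2 fold change of KO over WT (centred within each stage) in GV oocytes, 1-cell and 2-cell embryos for genes sorted by their 1-cell call, as boxes with medians and quartiles and whiskers to the 10th and 90th percentile. The 1-cell boxes of called genes are apart by construction. In oocytes the classes lie together (medians 0.07, 0.03 and 0.05), and at the 2-cell stage the medians are 0.33, 0.07 and −0.33.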

How the data were processed

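The authors deposited 1 table of FPKM values with 1 column for each of 12 libraries. The tools listed in the submitters' processing notes are Cufflinks 2.2.1 and TopHat2 2.1.1, with mm9 as the mouse build. Per the labels' protocols, the lysis buffer held ERCC control RNA, an oligo-dT primer started the cDNA, and sequencing was paired-end. The table held 11298 complete entries, 1 incomplete entry that was left out, 0 ERCC and 0 mitochondrially encoded entries, and 0 value columns without a sample. Entries run alphabetically to Zc3h14, and later genes were not analysed here. No value was below 1. Each embryo column was, by its digits, an FPKM value times 1 number per library, given in the report as the multiplier. FPKM carry no counts, so the depth of the libraries is not known and counting intervals could not be made.

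Only the 4 libraries of the comparison entered the fits at the 1-cell stage, with limma 3.58.1 in R 4.3.3 (intensity trend, two-sided p, Benjamini-Hochberg over all genes tested) on log2(FPKM + 1). Genes above the floor in at least 2 of the 4 libraries were tested. For centring, each library was divided by 2 to the power of its median log2 over genes above 1 FPKM in all 4 columns minus the mean of the 4 medians. For changes between stages, 8 libraries were fitted with an interaction term, centred within each stage. Exact permutation of 2 against 2 libraries cannot go below p = 0.333, so it was not used. Scripts were checked on simulated data. Python 3.11.15, pandas 2.3.3 and numpy 2.4.6 were used otherwise.

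Named genes were Pabpn1l and Btg4, the 12 largest and 12 smallest fold changes among called genes above the floor in all 4 libraries with a mean of at least 10 centred FPKM in the higher group, the 6 highest in each genotype among called genes at the floor in the other, the 10 most abundant genes, up to 2 called members at each end of each list, and the 5 largest and 5 smallest called changes between stages. Other genes were named after their values were seen. The members and the gene lists were chosen with earlier results of these data known. Transcript features came from GENCODE M21 (GRCm38) for 10575 genes (93.6%), 955 of them through an older symbol. No genome of the build mm9 was used.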

Additional observations from a re-analysis of the deposited data

Results flagged for a closer look

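The KO effect differed between the 1-cell stage and oocytes, by an interaction test in limma, for these named genes. The differences of the log2 effects, 1-cell minus GV, were 10.28 for Rn45s, 4.12 for Hist1h2bc, 4.10 for Cox7c, 3.38 for Tm2d1 and 3.37 for 2410004A20Rik. On the lower side they were −2.04 for Sod1, −2.09 for 1810006K21Rik, −2.22 for Atp6v1g1, −2.24 for Sec62 and −2.27 for Frg1. The value for Rn45s sets KO against 2 WT libraries raised to the floor, so it follows from where the floor lies and is neither a fold change nor a bound, and 1 WT value of Cox7c was at the floor too.

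The KO effect also differed between the 1-cell and the 2-cell stage. The differences, 1-cell minus 2-cell, were 4.62 for Rpl18, 4.45 for Psmb1, 4.22 for Psma5, 4.15 for Gm9786 and 4.11 for Cox7c. On the lower side they were −2.79 for Apoo, −2.82 for Plac1l, −2.94 for Dazl, −2.96 for Pabpn1l and −4.34 for Vaultrc5. Apoo, Plac1l, Dazl and Vaultrc5 averaged 40, 91.1, 68.0 and 45.4 centred FPKM in KO 2-cell embryos and 6.24, 5.24, 8.93 and 4.91 in WT 2-cell embryos. Gm9786 had wide replicates at both stages, with 1-cell values of 45.8 and 112.5 in KO and 75.1 and 20.2 in WT. Pabpn1l was near the floor in every 2-cell library, so its difference restates the 1-cell effect. Why these effects changed with the stage was not tested.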

How the results depend on the processing

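The cause of each change below was not tested, except where fewer libraries or other genes entered. As deposited, calls numbered 608 higher and 1 lower without a filter, 3226 higher with a mean of at least 5 FPKM, 2372 higher and 3 lower with the replicate number as a block, and 1198 to 3982 higher and 4 to 5 lower with 1 library left out. The median log2 ratio of KO over WT was 0.01 with the multiplier divided out and 0.84 to 1.26 with a library left out. On the centred scale calls numbered 24 higher and 11 lower without a filter, 1153 and 979 with the replicate block, 215 lower with the multiplier divided out, 262 lower with quantile normalization and 1098 lower with each library's own floor. With a library left out they numbered 0 in the 4-library fit, which has 1 residual degree of freedom (the lone library is assumed to vary like the other group), and 539 to 738 higher and 272 to 461 lower in the fit of all 12. For the 1-cell minus GV effects, calls numbered 201 and 87 without a filter, 672 and 510 with the block, and 218 to 476 higher and 45 to 306 lower with a library left out. For 1-cell minus 2-cell, higher calls numbered 535 with genes above the floor in all libraries and 557 with a mean of at least 5 FPKM, calls numbered 715 to 957 higher and 490 to 1033 lower with a library left out (1187 to 1682 of the 1922 calls were kept), and the block gave 948 and 853. The replicate numbers do not establish pairs: the labels name no shared animal or day, there are 2 pairs, and deviations of same-numbered libraries correlated at 0.181.

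Sign changes arose in named genes that were not called. With the multiplier divided out Bcl2l10 was 0.06 and Pttg1 0.06, and with quantile normalization Gm97 was −0.03 and Oosp1 −0.08. With a library left out, Apoo ran from −0.75 to 0.15, Btg4 from −0.01 to 0.36, Dazl from −0.36 to 0.01, Dppa3 from −0.20 to 0.34, Gm97 from −0.24 to 0.36, Gm9786 from −0.06 to 1.78, Mphosph6 from −0.42 to 0.07, Oosp1 from −0.01 to 0.47 and Pttg1 from −0.34 to 0.19. In the fit of all 12 libraries Pttg1 was 0.03 without WT replicate 1 and Gm97 −0.19 without WT replicate 2. Among the rest, 29 named genes lost their call with quantile normalization, 17 with the multiplier divided out, 4 in the fit of all 12 libraries, and 13 to 24 when that fit left out a library. With 2 libraries a group and no counts, a difference that missed the threshold was not detectable here rather than absent.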
